A study of Mus musculus with 12 samples.

Results

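The arrays described here are the 4 of 12 exosome arrays of this series on which fewer than 500 probes were detected, set beside the other 8. A probe was called detected on an array when its detection p-value, the rank of its signal among that array's negative control beads, was under 0.01. The low-detection arrays were PDGF-BB 1, PDGF-BB 2, PDGF-BB 4 and Control 1, and the high-detection arrays were TGF-β2 1 to 4, PDGF-BB 3 and Control 2, 3 and 4. The sides were chosen by the numbers of detected probes, so every difference between the sides given here is a description and carries no test. The sides also hold unequal treatments, with 3 PDGF-BB, 0 TGF-β2 and 1 control array among the 4, against 1 PDGF-BB, 4 TGF-β2 and 3 control arrays among the 8. Side and treatment therefore cannot be fully told apart.

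Exosomes are small membrane vesicles of endosomal origin that cells release and that carry RNA and protein. Here they were isolated by centrifugation and a sucrose gradient from the serum-free medium of the mouse atrial cardiomyocyte line HL-1 after 23 h with 10 ng/mL TGF-β2, with 100 ng/mL PDGF-BB or with no growth factor (control), with 4 samples in each group and each sample from 1 culture flask. The HL-1 line is a single immortalised line, so all 3 groups share its genotype. RNA leaves a cell in vesicles in small amounts and partly as fragments, and a bead array reads each transcript at short probes. A probe that is not detected gave a signal inside the range of the negative control beads, which does not show that its transcript was absent. Fewer vesicles, less RNA per vesicle and a weaker labelling of the same RNA cannot be told apart on these arrays.

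The low-detection arrays had 421 (PDGF-BB 1), 322 (PDGF-BB 2), 294 (PDGF-BB 4) and 463 (Control 1) detected probes, and the high-detection arrays had between 518 and 1506, with a median of 904.5. The nearest array below the threshold was Control 1 with 463, and the nearest above it were TGF-β2 4 with 518, Control 4 with 527 and TGF-β2 1 with 564. Of 25696 probes, 257 per array would be expected to pass if all behaved like the negative control beads. The detected numbers were 37 to 206 above that on the low-detection arrays and 261 to 1249 above it on the high-detection arrays. The excess is not a count of true signals. On PDGF-BB 4 it was 37, yet 167 of its probes were detected on 4 or more high-detection arrays too. With a detection p-value under 0.005 the sides stayed apart, at 182 to 295 against 335 to 1078 probes. With a detection p-value under 0.05 they overlapped, at 1339 to 1776 against 1661 to 2629 probes, because PDGF-BB 4 with 1776 stood above TGF-β2 4 with 1661.

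The bright end of the signal moved with the side, and the detection limit did not. The 99.9th percentile of scanner intensity, the signal exceeded by the brightest probes only, lay between 113.2 and 213.4 on the low-detection arrays and between 309.5 and 1425 on the high-detection arrays. The lowest signal called detected lay between 52.3 and 82.2 on the low-detection arrays and between 46.9 and 82.4 on the high-detection arrays, so that the ranges of the limits overlapped. Mean bead numbers per probe were 40.2 to 41.5 on the low-detection and 37.2 to 41.5 on the high-detection arrays, and the median standard error over the beads of a probe was 11.8 to 17.1 against 10.6 to 16. Each of the 2 chips held 2 low-detection and 4 high-detection arrays. Scanner intensity is used below, beside the detection calls, because it has not been forced to a common distribution across arrays.

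On all 8 high-detection arrays 148 probes (0.576% of all probes) were detected, and 26 of these were also detected on all 4 low-detection arrays (17.6% of the 148). Another 23 of the 148 (15.5%) were detected on none of the 4, and 21, 44 and 34 were detected on 1, 2 and 3 of them. The lost set grew to 41 probes without TGF-β2 1 and to 39 without TGF-β2 4, high-detection arrays near the threshold. The 26 persistent probes stood for 24 named genes and 1 probe without a gene name. Every array of the high side had to detect these probes by the choice of the set, so the counts describe only how far the low-detection arrays reached into it. For 12 of the 24 named persistent genes the array held 18 other probes. Of these 18, 15 were detected on no low-detection array and 11 on no array at all. Persistence is thus given for single probes and not for every probe of a gene.

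The 4 weak arrays reached into the common set very unequally, and not in the order of their detected numbers. Of the 148 probes, 35 were detected on PDGF-BB 1, 103 on PDGF-BB 2, 104 on PDGF-BB 4 and 73 on Control 1. PDGF-BB 4 and PDGF-BB 2 had the fewest detected probes in all and yet held the most of the common set, while PDGF-BB 1 and Control 1 had more detected probes and held fewer of it. The most frequent pattern was detection on PDGF-BB 2, PDGF-BB 4 and Control 1 but not on PDGF-BB 1, with 29 probes, followed by detection on PDGF-BB 2 and PDGF-BB 4 alone with 27 probes. PDGF-BB 1 therefore decided the size of the persistent set: without it 55 probes were detected on all remaining arrays, and all 26 were among them. Without PDGF-BB 1 and Control 1 the number was 83.

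A larger common set that did not use the arrays near the threshold was counted as well. The 5 arrays with more than 800 detected probes, TGF-β2 2 and 3, PDGF-BB 3 and Control 2 and 3, shared 331 probes. Of these 331, PDGF-BB 1 detected 49 (14.8%), Control 1 detected 95 (28.7%), PDGF-BB 2 detected 121 (36.6%) and PDGF-BB 4 detected 122 (36.9%). The 331 contain the 148, which make up 35 of the 49, 73 of the 95, 103 of the 121 and 104 of the 122. The order of the weak arrays is therefore largely carried over from the 148 and is not a separate result. The 3 high-detection arrays near the threshold detected 205 (61.9%, TGF-β2 1), 199 (60.1%, TGF-β2 4) and 248 (74.9%, Control 4). Arrays whose detected numbers differed by little, 463 on Control 1 against 518 on TGF-β2 4, thus differed more widely in how much of the shared set they held. Within the control arrays alone, Control 1 detected 92 of the 262 probes found on Control 2, 3 and 4 (35.1%). Within the PDGF-BB arrays, PDGF-BB 1, 2 and 4 detected 106, 179 and 154 of the 1070 probes of PDGF-BB 3 (9.91%, 16.7% and 14.4%).

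**Figure D1:**
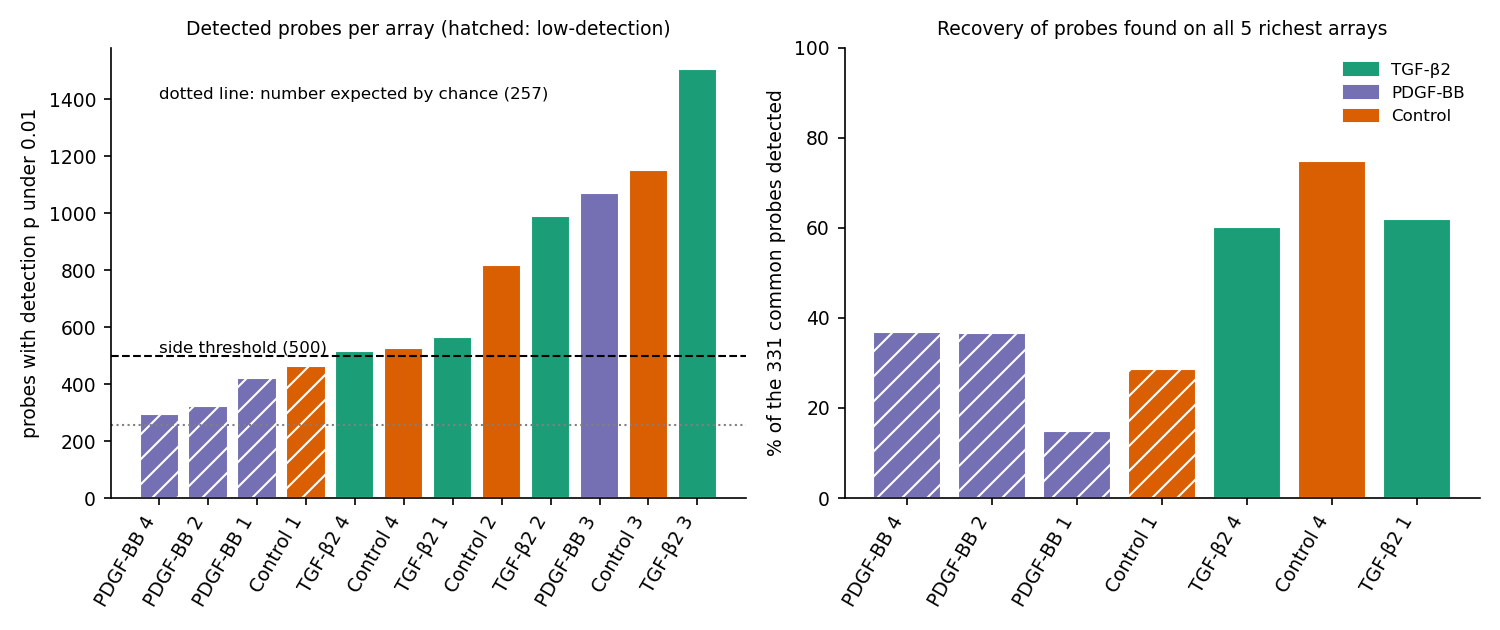
Left, the number of detected probes (detection p-value under 0.01) per array, low-detection arrays hatched and to the left, with the side threshold of 500 (dashed) and the 257 probes expected by chance (dotted); colours give the treatment. Right, the percentage of the 331 probes shared by the 5 arrays with more than 800 detected probes that each of the other 7 arrays detected; the 4 low-detection arrays lie between 14.8% and 36.9% and the other 3 between 60.1% and 74.9%.

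PDGF-BB 1 and Control 1 also held larger shares of probes that no high-detection array detected. Of their detected probes, 33.5% (PDGF-BB 1) and 35.4% (Control 1) were found on none of the 8 high-detection arrays, against 20.8% for PDGF-BB 2 and 22.1% for PDGF-BB 4. For each high-detection array the share found on none of the other 7 lay between 11% and 28.2%. In all, 402 probes were detected on at least 1 low-detection array and on no high-detection array, and 371 of them on a single low-detection array.

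Brightness on the high-detection arrays went along with persistence, with exceptions in both directions. Ranked by intensity within each array, with 1 as the brightest probe, the 26 persistent probes had a median rank of 19.75 on the high-detection arrays, and the 23 lost probes had a median rank of 131. The probes detected on 3, 2 and 1 of the 4 low-detection arrays had median ranks of 55.5, 74.5 and 119.5. Probes differ in how strongly they bind their target, so a rank is not a transcript number. The persistent set reached down to rank 191.5, and the lost set reached up to rank 55.0, so the ranges of the 2 sets overlapped. The signal of a probe divided by the standard error over its beads had a median of 5.51 to 11.8 on the 4 low-detection arrays for the persistent probes and of 1.17 to 3.35 for the lost probes. Both sets were chosen by detection on these same 4 arrays, which favours this difference, so it is a description only.

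**Figure D2:**
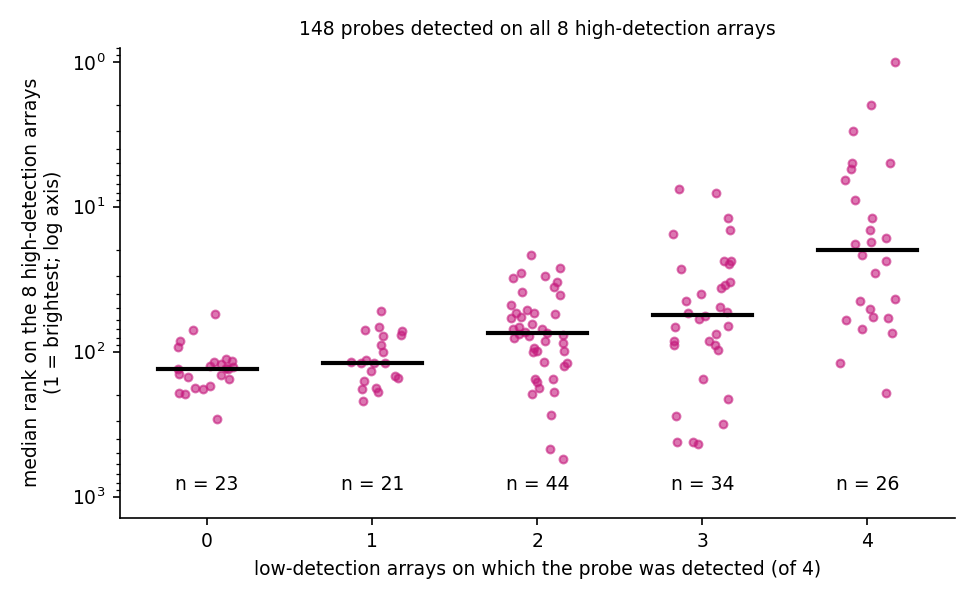
Each point is 1 of the 148 probes detected on all 8 high-detection arrays, placed by the number of low-detection arrays that detected it (horizontal) and by its median intensity rank on the high-detection arrays (vertical, log axis, brightest at the top); bars are medians. The medians run from rank 131 for probes detected on 0 low-detection arrays to rank 19.75 for those detected on 4, and the points of neighbouring columns overlap.

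Of the 26 persistent probes, 9 belonged to 8 ribosomal protein genes of both subunits. Rpl23, a protein of the large subunit, had the brightest probe in the median of either side, with intensities of 3763, 3401, 6602 and 4060 on PDGF-BB 1, PDGF-BB 2, PDGF-BB 4 and Control 1, against a lowest, median and highest value of 4168, 8315 and 24776 on the high-detection arrays. PDGF-BB 4 exceeded the lowest high-detection array, TGF-β2 4, so the sides overlapped. A second Rpl23 probe read 86.5, 190.2, 331.3 and 135.9 on the same 4 arrays, against 350.9, 1142 and 2326 on the high-detection arrays, and did not overlap. Of the other Rpl23 probes on the array 1 was detected on 1 high-detection array only.

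Rpl38, also of the large subunit, held the most even level among the bright persistent probes, at 398.5, 423.5, 524.6 and 595.4 on PDGF-BB 1, PDGF-BB 2, PDGF-BB 4 and Control 1, against 832.6, 1575 and 4375 on the high-detection arrays. Its highest value was 1.49 times its lowest over the 4 low-detection arrays, and 5.25 times over the 8 others. Rpl37, of the large subunit as well, was the most uneven of the 26, at 121.7, 801.2, 1522 and 312.9, against 1372, 3622 and 6919, and its highest value was 12.5 times its lowest over the low-detection arrays. PDGF-BB 1 and Control 1 were the low values for Rpl37, whereas PDGF-BB 4 lay above the dimmest high-detection array.

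The small subunit was represented by Rps14, Rps19, Rps20, Rps24 and Fau, whose product is a ubiquitin-like protein fused to a ribosomal protein. Rps20 read 384.8, 494.0, 969.3 and 558.6 on PDGF-BB 1, PDGF-BB 2, PDGF-BB 4 and Control 1, against 1193, 1912 and 6499 on the high-detection arrays. Rps19 read 113.4, 550.0, 817.2 and 113.5, against 773.0, 2670 and 3692. Rps14 read 124.5, 177.6, 216.2 and 149.6, against 384.2, 726.9 and 1329. The sides were apart for Rps20 and Rps14 and overlapped for Rps19 through PDGF-BB 4. Ribosomal protein genes have many near-identical processed copies in the mouse genome, so a probe of this family may also read such copies.

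Eef1g, a subunit of the elongation factor that delivers aminoacyl-tRNA to the ribosome, was the only persistent member of the 61 translation factors, at 103.8, 179.2, 252.0 and 173.6 on PDGF-BB 1, PDGF-BB 2, PDGF-BB 4 and Control 1, against 481.4, 848.9 and 1675 on the high-detection arrays. Tuba1b, an alpha-tubulin of microtubules, read 96.5, 263.2, 388.0 and 102.1, against 616.3, 1185 and 2632. Neither overlapped between the sides, and for both PDGF-BB 1 was the lowest of the 12 arrays.

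Other bright persistent probes belonged to single genes of various roles. Irgm1, an interferon-inducible GTPase, read 206.8, 1151, 626.3 and 695.8 on PDGF-BB 1, PDGF-BB 2, PDGF-BB 4 and Control 1, against 1254, 2600 and 7639 on the high-detection arrays. Wsb2, a SOCS-box protein of ubiquitin ligases, read 160.2, 666.4, 968.9 and 166.7, against 1270, 2474 and 6198. The sides were apart for both, by a narrow margin for Irgm1 between PDGF-BB 2 and TGF-β2 4. Klhdc10, a kelch-domain adaptor of ubiquitin ligases, read 84.0, 172.1, 417.3 and 194.5, against 431.9, 690.7 and 1887. Ptpn11, the tyrosine phosphatase SHP2, read 123.5, 232.1, 334.9 and 102.9, against 463.6, 584.8 and 1699. Both were likewise below every high-detection array. The probe ILMN_2858523, which carries no gene name here, was the second in median rank on either side, at 609.0, 3878, 2103 and 1682, against 3693, 7335 and 16769.

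Lbh, a transcription cofactor first described in limb bud and heart, was the only cardiac transcription regulator that persisted. It read 227.9, 309.5, 516.6 and 480.8 on PDGF-BB 1, PDGF-BB 2, PDGF-BB 4 and Control 1, against 503.8, 1096 and 3269 on the high-detection arrays, and PDGF-BB 4 lay above TGF-β2 4, the lowest of the 8. Its second probe was detected on 1 low-detection and 7 high-detection arrays.

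Among the 5 dimmest persistent probes, the level of Htatsf1 differed least between the sides. Htatsf1, a nuclear RNA-binding factor of transcription elongation and splicing, read 121.1, 108.3, 106.8 and 117.4 on PDGF-BB 1, PDGF-BB 2, PDGF-BB 4 and Control 1, against 109.5, 159.0 and 212.6 on the high-detection arrays. Its median was 1.41 times as high on the high-detection arrays, the smallest ratio of the 26, and its median rank was 36.5 on the low-detection against 191.5 on the high-detection arrays. Serbp1, an mRNA-binding protein found on ribosomes, read 101.6, 80.0, 122.1 and 87.9, against 121.5, 216.7 and 418.6. Erich5 read 123.8, 84.4, 199.7 and 150.7, against 147.0, 267.8 and 771.3. All 3 overlapped between the sides.

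Rnu6, the U6 small nuclear RNA of the spliceosome, read 107.6, 112.6, 142.9 and 86.9 on PDGF-BB 1, PDGF-BB 2, PDGF-BB 4 and Control 1, against 154.3, 335.4 and 869.6 on the high-detection arrays. Wbp1l read 108.6, 84.3, 213.9 and 57.7, against 190.7, 292.8 and 724.5. Rnu6 did not overlap and Wbp1l did, again through PDGF-BB 4. The remaining persistent genes were Rps24, Fau, Fth1 (the ferritin heavy chain), Odc1 (the first enzyme of polyamine synthesis), Cyb5b (a cytochrome b5 of the outer mitochondrial membrane) and Denn2b, with medians of 87.8 to 116.3 on the low-detection and 333.1 to 580.8 on the high-detection arrays.

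Over the 26 persistent probes, the low-detection arrays differed from each other in a common direction. PDGF-BB 4 had the highest value of the 4 for 22 of the 26 probes, and PDGF-BB 1 had the lowest for 15. Divided by the median over the high-detection arrays, the intensities had medians of 0.205 on PDGF-BB 1, 0.260 on PDGF-BB 2, 0.394 on PDGF-BB 4 and 0.220 on Control 1. The 3 high-detection arrays near the threshold came next, at 0.526 (TGF-β2 4), 0.609 (TGF-β2 1) and 0.769 (Control 4), and the other 5 lay between 0.927 and 1.93. Of the 26 probes, 16 had no overlap between the sides, and of the 23 lost probes none overlapped. The choice of the sides by detected numbers favours this, so the 16 are not read as a trait of the persistent probes. No low-detection array reached the median of the high-detection arrays for any of the 26 probes, but TGF-β2 1 and TGF-β2 4 did not do so either.

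**Figure D3:**
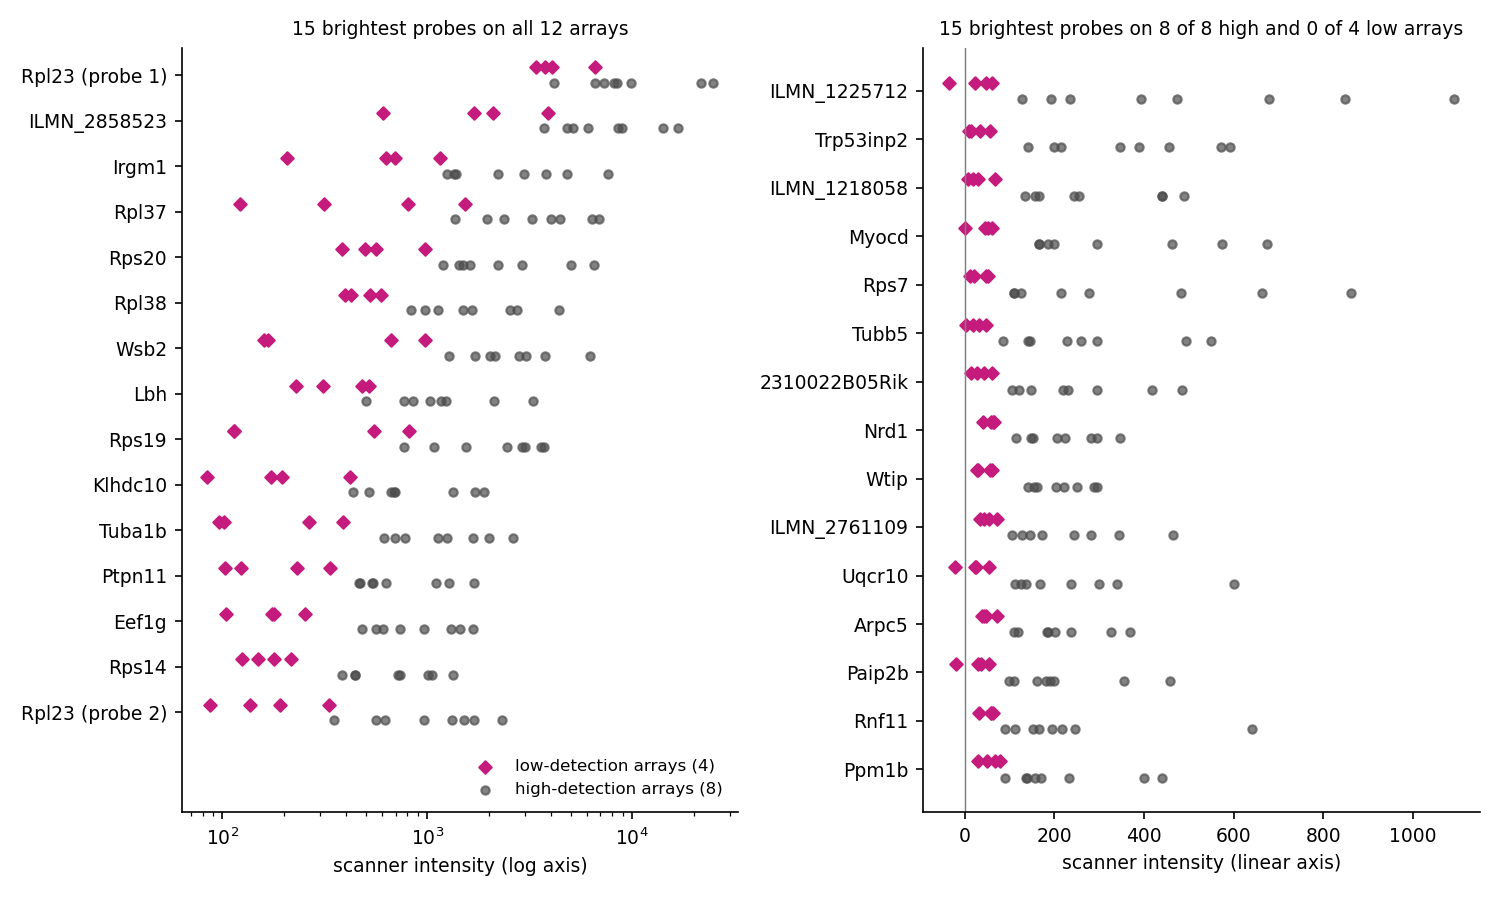
Scanner intensity on each low-detection array (diamonds, upper row of each gene) and each high-detection array (circles, lower row) for the 15 persistent probes with the highest median log2 intensity on the low-detection arrays (left, log axis) and the 15 lost probes with the highest median log2 intensity on the high-detection arrays (right, linear axis). On the left the rows overlap for some probes, such as Lbh and Rpl37, and on the right the low-detection values lie at or below 78.8 and do not reach the high-detection values.

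The probes that dropped out were dimmer in the median on the high-detection arrays than the persistent ones, and 1 of them was ribosomal. Few ribosomal probes were dim in the first place. At median ranks above 100 the common set held 5 ribosomal and 50 other probes, of which 1 and 18 were lost. On the 4 low-detection arrays the 23 lost probes lay between -36.6 and 78.8 in intensity, with 6 of the 92 values below 0, and on the 8 high-detection arrays between 68.9 and 1093. No probe of the 23 overlapped between the sides, which the choice of the set favours. The 23 probes carried 20 gene names, and 3 had none. Since these values lie within the range of the negative control beads on the weak arrays, no fold is given for them.

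Myocd, which encodes myocardin, a coactivator of serum response factor in cardiac and smooth muscle, had the highest median rank (70.5) on the high-detection arrays among the lost probes with a gene name. It read 1.06, 51.4, 59.9 and 44.7 on PDGF-BB 1, PDGF-BB 2, PDGF-BB 4 and Control 1, against 164.6, 246.9 and 673.3 on the high-detection arrays. PDGF-BB 3, the only PDGF-BB array of the high side, read 198.0, inside the range of the other 7. On the log2 scale after quantile normalization between arrays, PDGF-BB 3 was at 6.40, below the other 7 at 7.18 to 8.05. Control 1 lay with the 3 weak PDGF-BB arrays and not with Control 2 to 4, which the choice of the lost set fixes. The other 2 Myocd probes on the array were detected nowhere, so the pattern rests on 1 probe.

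Trp53inp2, a nuclear protein with a role in autophagy, read 9.58, 56.4, 33.6 and 13.6 on PDGF-BB 1, PDGF-BB 2, PDGF-BB 4 and Control 1, against 140.4, 367.1 and 591.6 on the high-detection arrays. Rps7, of the small ribosomal subunit, read 20.1, 52.0, 47.7 and 10.9, against 108.8, 245.4 and 861.1, and was the only lost ribosomal gene. Tubb5, a beta-tubulin, read 2.30, 46.1, 17.8 and 30.6, against 85.6, 243.6 and 548.7. The alpha-tubulin Tuba1b persisted while the beta-tubulin Tubb5 was lost. Of the actin-nucleating Arp2/3 complex, Arpc5 was lost as well, at 43.5, 37.9, 71.1 and 46.2, against 110.6, 193.4 and 367.8.

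Uqcr10, a small subunit of respiratory complex III, read -21.3, 24.8, 54.3 and 23.1 on PDGF-BB 1, PDGF-BB 2, PDGF-BB 4 and Control 1, against 111.3, 201.6 and 601.2 on the high-detection arrays. Nrd1, the metalloprotease nardilysin, read 64.5, 59.0, 63.3 and 39.3, against 113.9, 215.2 and 345.4. Prdx4, a peroxiredoxin of the endoplasmic reticulum, read 50.7, 44.7, 42.0 and 12.2, against 125.6, 182.2 and 245.0, with a narrow range on the high side. The same held for Wtip, a LIM-domain protein, at 27.8, 55.0, 60.8 and 28.5, against 140.4, 212.0 and 294.5.

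The remaining lost genes were 2310022B05Rik, Ppm1b (a protein phosphatase), Rnf11 (a RING-finger protein), Paip2b (an inhibitor of poly(A)-binding protein), Cyb561, Ssr3 (of the translocon), Bag1 (a co-chaperone of Hsp70), Abi2 (of the WAVE complex), Chp1, Cerk (ceramide kinase) and Prelid3b. Their medians on the high-detection arrays lay between 110.5 and 224.9. For 2 of the 20 named genes the loss concerned a single probe: another probe of Abi2 was detected on 3 low-detection and 8 high-detection arrays, and another of Rnf11 on 2 and 8. For Ppm1b and Uqcr10 the second probe was detected on 0 low-detection arrays too, and on 7 and 6 of the high-detection arrays. At the level of genes, with any probe counted, 127 named genes (0.765% of 16593) were detected on all 8 high-detection arrays, of which 24 (18.9%) were on all 4 and 18 (14.2%) on none of the low-detection arrays.

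Some probes were lost or nearly lost despite a high rank. Gm6548, annotated as a transcribed pseudogene, had a median rank of 52.5 on the high-detection arrays and read -21.8, 89.2, 55.5 and 39.2 on PDGF-BB 1, PDGF-BB 2, PDGF-BB 4 and Control 1, against 136.9, 298.4 and 1314 on the high-detection arrays. Fam168b (rank 67.5) read -80.0, 48.2, 85.8 and 1.60, against 155.6, 310.7 and 1326. Rtraf, of a tRNA ligase complex, (rank 70.5) read 8.47, 23.8, 85.0 and 51.8, against 145.1, 285.1 and 531.2. Each of the 3 was detected on 1 low-detection array, PDGF-BB 2 for Gm6548 and PDGF-BB 4 for the others. The unnamed probe ILMN_1225712 (rank 55.0) was lost on all 4, at -36.6, 22.8, 59.4 and 47.3, against 128.4, 433.3 and 1093.

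Ribosomal protein genes were found more often than the array as a whole on both sides. The 63 cytosolic ribosomal protein genes on the array were detected in 8 (PDGF-BB 1), 29 (PDGF-BB 2), 24 (PDGF-BB 4) and 18 (Control 1) cases on the low-detection arrays, that is 12.7% to 46.0%, against 49.2% to 76.2% on the high-detection arrays. Over all named genes the shares were 1.55% to 2.57% against 2.81% to 7.84%. PDGF-BB 2 with 29 genes stood close to TGF-β2 1 with 31 and TGF-β2 4 with 33, and PDGF-BB 1 stood far below all others. PDGF-BB 2 had fewer detected probes in all than Control 1 and PDGF-BB 1.

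Of the 63 ribosomal genes, 27 were detected on all 8 high-detection arrays, and these fell into 8, 9, 3, 6 and 1 genes detected on 4, 3, 2, 1 and 0 low-detection arrays. The share on all 4 was 29.6%, beside 18.9% over the 127 genes of the common set, and the share on none was 3.70%, beside 14.2%. The 9 genes on 3 arrays were Rpl3, Rpl9, Rpl37a, Rpl41, Rplp1, Rps2, Rps21, Rps26 and Rps27, and the missing array was PDGF-BB 1 for each of the 9. Without PDGF-BB 1, 17 ribosomal genes were detected on all remaining arrays. Rpl9, the brightest of the 9, read 31.9 on PDGF-BB 1, and its median over the low-detection arrays was 258.3, against 1816 over the high-detection arrays.

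The ribosomal probes were also among the brightest, and brightness and family were therefore counted together. Among the probes of the common set with a median rank of up to 30 on the high-detection arrays, 7 of 14 ribosomal and 9 of 15 other probes persisted. At ranks above 30 and up to 100, 2 of 9 ribosomal and 6 of 55 other probes persisted, and 0 and 4 were lost. At ranks above 100, 0 of 5 ribosomal and 2 of 50 other probes persisted, and 1 and 18 were lost. The counts in the lower ranks are too small to order ribosomal against other probes.

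The mRNAs of mitochondrial respiration were detected in smaller shares on the weak arrays. Of 80 oxidative phosphorylation genes, between 1.25% and 7.5% were detected on the low-detection arrays, against 11.2% to 52.5% on the high-detection arrays, beside 1.55% to 2.57% and 2.81% to 7.84% of all named genes. PDGF-BB 1, with 1.25%, was the only array on which the list lay below all named genes. Of the 80, 4 were on all 8 high-detection arrays. Atp5g3, of the membrane ring of the ATP synthase, was detected on 3 low-detection arrays, Atp5mpl on 2, Cox8a, of cytochrome c oxidase, on 1 and Uqcr10 on 0. Atp5g3 had a median of 88.1 over the low-detection arrays, against 431.6 over the high-detection arrays.

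Of 15 atrial cardiomyocyte genes, 1 or 2 were detected on each low-detection array, that is 6.67% to 13.3%, and 13.3% to 40.0% on the high-detection arrays. These shares lay above those of all named genes on either side. Myl4, an essential light chain of atrial myosin, and Atp2a2, which pumps calcium into the sarcoplasmic reticulum, were on all 8 high-detection arrays and on PDGF-BB 2, PDGF-BB 4 and Control 1. Myl4 had a median of 94.5 over the low-detection arrays, against 480.1 over the high-detection arrays, and Atp2a2 had medians of 101.4 and 468.6. Myl7, Myh6 and Gja1 were detected on 5, 3 and 6 high-detection arrays and on 0 low-detection arrays. Nppa, Actc1, Tnni3, Ryr2, Sln, Gja5 and the transcription factors Gata4, Nkx2-5 and Tbx5 were detected on 0 of the 12 arrays. The 7 endothelial and 2 erythroid genes were at 0 as well, and of the 5 leucocyte genes 1 was detected, on a single high-detection array. Of the 8 fibroblast genes, Dcn was detected on 2 high-detection arrays and Col3a1 on PDGF-BB 1 only. Lists this short do not tell cell types apart.

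On PDGF-BB 1 alone, a few cardiac and matrix genes passed the threshold that the other weak arrays did not detect. Nfat5, Ankrd1, Mef2a and Ttn were detected on PDGF-BB 1 and on 0 of the other low-detection arrays, and on 4, 1, 0 and 6 of the high-detection arrays, and so was the fibroblast gene Col3a1, on 0 of the high-detection arrays. These are single detections on the array that held the least of the common set, and 257 probes per array would be expected at the threshold by chance.

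Beside the 0.765% of all named genes found on all 8 high-detection arrays, the other lists held between 0 and 5 such genes. Of the 34 tubulin, actin and actin-binding genes, 5 were on all 8, with Tuba1b on 4, Acta2 and Arpc1a on 2 and Arpc5 and Tubb5 on 0 low-detection arrays. Of the 50 exosome and multivesicular body genes and the 25 cytosolic chaperones, the chaperone Hspa8, a member of both lists, was the only one on all 8 high-detection arrays, and it was on 3 of the low-detection arrays. The 43 sarcomere and calcium handling genes added only Atp2a2 and Myl4 again, and of 24 TGF-β target genes Acta2 was on all 8 high-detection arrays. Rab28, of the 65 Rab GTPases, was likewise on 8 and 3, and Ube2j2, a ubiquitin-conjugating enzyme, on 8 and 2. The mitochondrial ribosomal proteins, the proteasome, glycolysis, fatty acid oxidation and TCA cycle, the mRNA-binding proteins and the growth factor response genes had 0 genes on all 8. The 1208 olfactory and vomeronasal receptor genes are not known to be used by a cardiomyocyte as a class. Between 0.911% and 1.99% of them were detected on the low-detection arrays (median 1.53%), and 0.662% to 2.57% on the high-detection arrays (median 2.03%). By chance the threshold passes 1 in 100 probes. A gene counted as detected when any of its probes passed, so the chance share of genes can be higher than that.

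**Figure D4:**
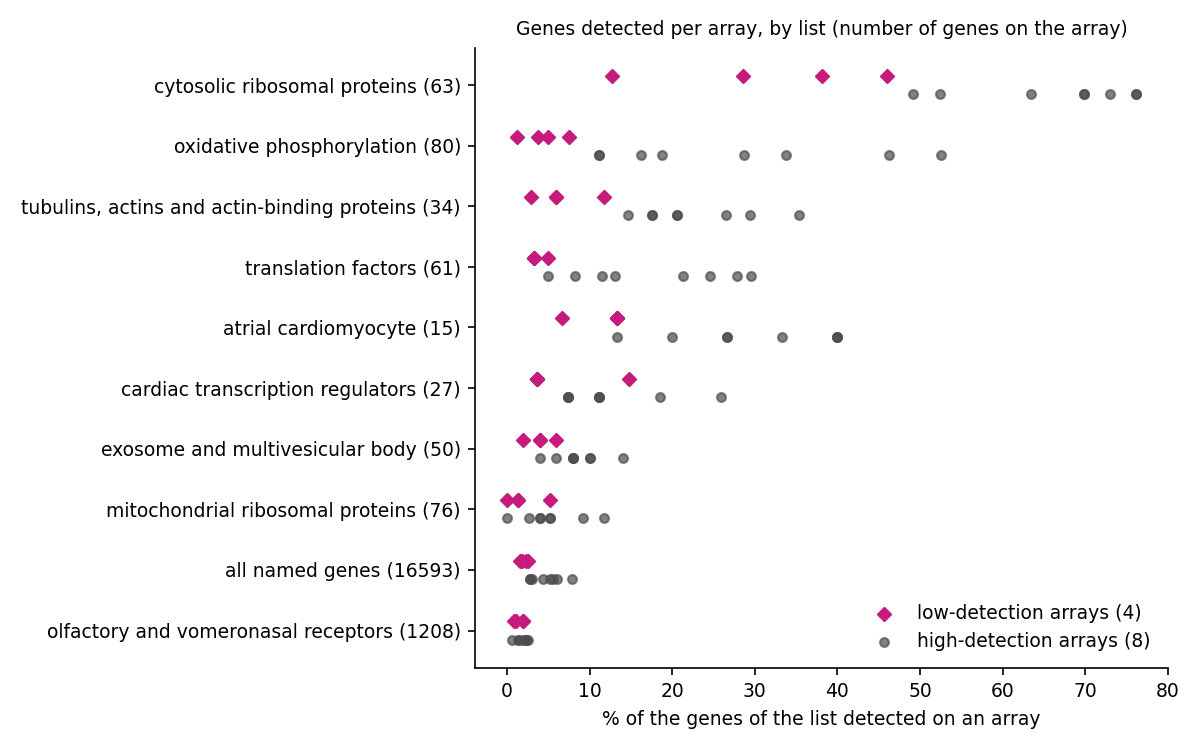
Percentage of the genes of each list detected on each low-detection array (diamonds, upper row) and each high-detection array (circles, lower row), with the number of genes of the list on the array in brackets. The ribosomal proteins and oxidative phosphorylation have no overlap between the sides, at 12.7% to 46.0% against 49.2% to 76.2% and at 1.25% to 7.5% against 11.2% to 52.5%. The same holds for the tubulin and actin list, at 2.94% to 11.8% against 14.7% to 35.3%. All named genes have none either, at 1.55% to 2.57% against 2.81% to 7.84%, as the sides were chosen by detected numbers. The olfactory receptors overlap.

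A small set of probes went the other way and was detected more regularly on the weak arrays. On all 4 low-detection arrays 37 probes were detected (0.144% of all probes), and 11 of them were missing from at least 1 high-detection array: Abcf1, Alox12b, Cdhr2, Gm5820, Klf10, Ncstn, Senp1, Setd4, Tdpoz2, Zcchc9 and Zeb1. Their medians over the low-detection arrays lay between 73.6 and 138.1, beside detection limits of 52.3 to 82.2 on those arrays. Median ranks on the low-detection arrays ran from 24 (Zcchc9) to 174 (Zeb1), with 1 as the brightest. The median on the high-detection arrays was between 0.721 and 1.16 times that on the low-detection arrays. These signals were thus about as strong on both sides, which the choice of the 11 favours. Each had to pass on all 4 low-detection arrays and to miss at least 1 high-detection array, with values not far above the detection limits. Their ranks among all probes were lower on the high-detection arrays.

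Zcchc9 was the brightest of the 11 in the median over the low-detection arrays, at 142.4, 169.6, 133.8 and 116.2 on PDGF-BB 1, PDGF-BB 2, PDGF-BB 4 and Control 1, against 47.5, 99.5 and 159.1 on the high-detection arrays. Klf10, a zinc-finger repressor known as an early TGF-β response gene, read 134.6, 115.3, 111.8 and 106.9, against 24.8, 110.9 and 212.7. The TGF-β2 arrays, all of the high side, lay between 60.9 and 212.7. Cdhr2, a cadherin-related protein, read 88.9, 87.5, 90.6 and 100.0, against 47.7, 65.4 and 113.4, and was the only probe on all 4 low-detection and at most 3 high-detection arrays. All of these overlapped between the sides.

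At least 3 low-detection and at most 3 high-detection arrays detected 11 probes, among them Cdhr2, Notch2 (a cell surface receptor), Ccnf (cyclin F), Slc25a3 (the mitochondrial phosphate carrier), Blvrb (biliverdin reductase B), Cmtm4, E330034G19Rik, Gm11541 and Olfr1260. Notch2 read 86.0, 71.7, 94.5 and 42.2 on PDGF-BB 1, PDGF-BB 2, PDGF-BB 4 and Control 1, against 39.4, 57.9 and 96.4 on the high-detection arrays. Of the 11, 4 were on no high-detection array.

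The treatments were compared with all 12 arrays and again without the 4 weak ones. PDGF-BB arrays had 526.8 ± 366.2 detected probes and control arrays 740.5 ± 315.3 (SD, n = 4 each), a difference of -213.8 (two-sided exact permutation test over 70 assignments, p = 0.4, Benjamini-Hochberg adjusted p = 0.6 over 3 comparisons). TGF-β2 arrays had 894.2 ± 459.7, which was 153.8 above control (exact p = 0.6, adjusted p = 0.6) and 367.5 above PDGF-BB (exact p = 0.2, adjusted p = 0.6), and 0.0286 is the smallest p this design allows. The sign of TGF-β2 minus control turned to -15.8 with a detection p-value under 0.05 and to -50.2 without TGF-β2 3. The arrays of chip 1 had 628.2 ± 310.5 and those of chip 2 had 812.8 ± 452.3 (SD, n = 6 each), a difference of -184.7 (two-sided exact permutation test, p = 0.435), which turned to 20 with a detection p-value under 0.05. None of these differences passed its permutation test. The tests used the same detected numbers that set the sides, so they are no test of the sides.

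Probe intensities on the log2 scale were compared for the 1099 probes detected on at least 3 arrays, by limma with Benjamini-Hochberg adjustment over all of them. With an adjusted p under 0.05, 0 probes (0.0%) passed in each of the 3 comparisons, while 8 probes (TGF-β2 against control), 48 (PDGF-BB against control) and 52 (TGF-β2 against PDGF-BB) had an unadjusted p under 0.05. Without the 4 low-detection arrays 0 probes passed too, but PDGF-BB 3 was then the only PDGF-BB array, assumed to vary like the other groups, so this count says little of the PDGF-BB comparisons. The members of the lost set all leaned one way, which the choice of the set favours, as 3 of the 4 arrays that lost them came from PDGF-BB. For PDGF-BB against control 23 of 23 log2 differences were negative, with a median of -0.91, beside a median of -0.06 over the 1099 probes. Without the 4 low-detection arrays the median of the 23 was -0.12, beside -0.04 over all. For the 26 persistent probes the medians were -0.21 with and -0.23 without the low-detection arrays, the latter with PDGF-BB 3 as the only PDGF-BB array. The log2 values were quantile normalized, which gives probes of the same rank the same value on every array. Differences among the brightest probes are thereby held small.

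Myocd had a log2 difference of -1.72 ± 0.58 (SE) for PDGF-BB against control in the 12 arrays (limma adjusted p = 0.82) and of -1.28 without the 4 low-detection arrays (adjusted p = 0.31, with PDGF-BB 3 as the only PDGF-BB array). Without Control 1 alone, which leaves all 3 weak arrays in the PDGF-BB group, Myocd was at -2.37 ± 0.38 (adjusted p = 0.035) and Adarb1, an RNA-editing enzyme, at -1.53 ± 0.23 (adjusted p = 0.035), 2 probes of 1060 (0.189%). For TGF-β2 against PDGF-BB, Myocd alone passed without Control 1 (1 of 1060, 0.0943%), at 2.50 ± 0.35 (adjusted p = 0.022). Adarb1 read 18.3, 17.1, 54.4 and -12.3 on PDGF-BB 1, PDGF-BB 2, PDGF-BB 4 and Control 1, and was detected on 5 of the high-detection arrays, with PDGF-BB 3 at 33.4.

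Within chip 1, with 2 arrays in each group, both PDGF-BB arrays were weak and all arrays of the other groups were not. There the comparisons of PDGF-BB are comparisons of the sides themselves, and treatment and side cannot be told apart. For PDGF-BB against control 24 probes (2.18% of 1099) had an adjusted p under 0.05 and for TGF-β2 against PDGF-BB 3 (0.273%), and these numbers are given only as a description. Within chip 2, where PDGF-BB and control had 1 weak array and 1 that was not, 0 probes passed.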

How the data were processed

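Exosome RNA of 12 samples was hybridised to Illumina MouseRef-8 bead arrays. Per the file headers, the deposited scanner table gives the intensity of each of 25696 probes, a detection p-value, the number of beads and the standard error over beads; its intensity values had a background subtracted by the authors' software but were not normalized between arrays. The software is GenomeStudio per the labels and Beadstudio per the study's methods. A second deposited table holds intensity after the authors' cubic spline normalization and was used as an alternative only. The study set aside a PDGF-BB sample as an outlier, whose number is not given in the sources used here, and all 12 arrays were kept.

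Groups were taken from the sample titles and chips from the array names in the labels. The members and gene lists were chosen with earlier results of these data known. Of the probes, 23977 carried a gene symbol, and 23961 of their identifiers matched the RefSeq gene table. A gene was detected when any of its probes was. Sides were described by ranges, medians and counts. Named were the 15 persistent and the 15 lost probes with the highest median log2 intensity on the low-detection and on the high-detection arrays, up to 10 probes of the low side (highest median there), the 5 brightest probes on at most 1 low-detection array, the 5 dimmest persistent ones, members of the lists that met one of these rules, and Myocd and Adarb1; other names were added after their values were seen. The 24 gene lists covered ribosome, mitochondria, heart, vesicle and cell type genes.

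For the treatments, the log2 intensity was computed from the scanner table with neqc (normexp, quantile, offset 16; limma 3.58.1, R 4.3.3), on probes detected on at least 3 arrays, with group means as the design. All log2 values were computed here and none was taken from the deposited tables. The fit was tested on simulated data. Exact permutation tests and plots used Python 3.11.15, numpy 2.4.6 and matplotlib 3.10.9. Samples came from separate culture flasks, and the number of arrays limits the precision; for PDGF-BB against control the log2 differences had a median standard error of 0.341. Alternatives were other detection thresholds, equal numbers of the brightest probes, each array left out, each chip or treatment alone, other normalizations, chip and replicate blocks and array weights. No probe sequence was used.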

Additional observations from a re-analysis of the deposited data

Results flagged for a closer look

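In groups of 4 arrays, an array was singled out where its gap to the nearest other array made up more of the whole range than Dixon's 95% critical value allows, in 27 of 162 groups of values. Chance flags about 1 in 20 groups, but the detected numbers set the sides and the probes were chosen by side, so the number found is not read against chance; the flags of PDGF-BB 3, the only PDGF-BB array of the high side, follow from that choice. Of the 27, PDGF-BB 3 accounts for 11, PDGF-BB 1 for 7, Control 1 for 5 and PDGF-BB 2 for 2. The number of detected probes on PDGF-BB 3 was 1070, against 294 to 421 on the other PDGF-BB arrays, and its 99.9th percentile of intensity was 1304.5, against 119.9 to 213.4. Of the 148 common probes Control 1 detected 73, and the other control arrays all of them, which follows from the choice of the set.

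On the log2 scale, where quantile normalization gives every array the same distribution, PDGF-BB 1 stood below the other PDGF-BB arrays for persistent probes: Eef1g at 7.55, Fau at 5.75, the dimmer Rpl23 probe at 5.88, Rpl37 at 9.08, Rps19 at 8.43 and Tuba1b at 6.93, while Rpl38 stood above them at 11.61, against 10.3 on the others. PDGF-BB 2 was low for Rps20 at 10.63 and for Odc1 at 6.39. Control 1 was low for Rps19 at 8.99, Denn2b at 5.43, ILMN_1225712 at 5.14 and Nrd1 at 4.98, and Control 2 was high for the dimmer Rpl23 probe at 9.66.

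For lost probes, PDGF-BB 3 stood above the 3 weak PDGF-BB arrays: Uqcr10 at 8.11, 2310022B05Rik at 6.68, ILMN_1218058 at 7.74, Bag1 at 7.17, ILMN_1225712 at 8.48, Chp1 at 6.48, Prdx4 at 6.72, Rps7 at 8.53 and Tubb5 at 7.93. TGF-β2 4 was low for 2310022B05Rik at 6.58, against 7.12 to 7.17 on the other TGF-β2 arrays.

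The detected numbers of TGF-β2 and control arrays went opposite ways on the 2 chips. On chip 1 both TGF-β2 arrays lay below both controls, with a mean difference of -445.0 probes, and on chip 2 both lay above, with 752.5. This difference between the chips was not tested.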

How the results depend on the processing

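With each array left out in turn, the persistent probes numbered 26 to 55, the lost probes 23 to 41 and the probes on every high-detection array 148 to 176; the 55 came without PDGF-BB 1, and the 41 and 39 lost probes came without TGF-β2 1 and without TGF-β2 4, the arrays nearest the threshold together with Control 4. With a detection p-value under 0.05 there were 54 persistent probes and 256 common ones. With one under 0.005 there were 21 persistent probes, all within the 26, and 29 lost ones, 21 of them within the 23; with the 294 brightest probes of every array taken as detected there were 24 and 19, all within the sets above. Within chip 1 the counts were 41 persistent and 69 lost, within chip 2 they were 75 and 140 of 305 common probes, within control 92 and 170 of 262, and within PDGF-BB 790 of 1070 were lost. Sides of 6 and 6 arrays gave 9 lost probes. Chosen after seeing the data, leaving out PDGF-BB 1 and Control 1 gave 83 persistent probes, and setting the common probes on the 5 richest arrays gave 36 lost of 331.

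Ribosomal protein genes on all arrays numbered 8, and 17 without PDGF-BB 1; oxidative phosphorylation genes numbered 0 there, and 1 with a detection p-value under 0.05 or without PDGF-BB 1, with 8 in place of 4 on all high-detection arrays at the wider threshold. The difference in detected probes between TGF-β2 and control reversed to -15.8 with a detection p-value under 0.05, and that between chip 1 and chip 2 reversed to 20. With each array left out, TGF-β2 minus control ran from -50.2, without TGF-β2 3, to 290.9, PDGF-BB minus control from -394.8 to -76.6, and TGF-β2 minus PDGF-BB from 163.6 to 548.6. The limma calls stayed at 0 for TGF-β2 against control under all 23 alternatives. They reached 24 for PDGF-BB against control and 3 for TGF-β2 against PDGF-BB within chip 1, where all PDGF-BB arrays are weak and the others are not, and with each array left out they ran from 0 to 2 and from 0 to 1, the highest without Control 1. The replicate block gave 0 calls in each of the 3 comparisons. The correlation of same-numbered samples' deviations from their group means ran from -0.225 to 0.429. It was over 0.1 in 7 of 12 pairs, among them all pairs of number 1 and of number 3. The main fits treated the samples as unpaired, and these correlations give no reason for that choice. Whether same-numbered samples share an effect was not tested, nor was the cause of the changes between settings. The signal over background limits all of the above: on the weak arrays 294 to 463 probes were detected in all, beside the 257 expected if all probes behaved like the negative control beads.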

Other observations

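Fitted array weights, which limma estimates from how far each array lies from its group over the 1099 probes, were 0.391 for Control 1, 0.405 for PDGF-BB 1, 0.940 for PDGF-BB 2 and 1.19 for PDGF-BB 4, and ran from 0.467 (PDGF-BB 3) to 2.76 (TGF-β2 2) on the high-detection arrays. The 2 weak arrays with the smallest part of the common set thus had the lowest weights of the 12, and PDGF-BB 4, with the fewest detected probes, had a weight above 1.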
